A study of Homo sapiens with 18 samples.

Results

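The genes described here are 9 components of the G1 restriction point, the control that D-type cyclins exert on the retinoblastoma protein: the cyclins CCND1 and CCND3, the kinases CDK4, CDK6 and CDK2, the inhibitor CDKN1B (p27) and the pocket proteins RB1, RBL1 (p107) and RBL2 (p130). They were chosen by name, and all 9 were among the 17026 genes of the deposited table. The RNA, selected for poly(A), came from BxPC-3, MiaPaCa-2 and PANC-1, established lines grown from human pancreatic ductal adenocarcinomas. Each line was given THZ1 at 100 nM, or DMSO as the solvent control, over 6 h, which makes 6 groups of 3 libraries and 18 libraries. THZ1 is a covalent inhibitor of CDK7 that also binds CDK12 and CDK13. All groups shared 1 culture medium, F12 with fetal bovine serum, β-glycerophosphate, L-ascorbic acid, penicillin and streptomycin. A line is a single cultured population, so the libraries of a group measure the spread between cultures or preparations of that line and not between tumours.

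Mitogens raise the D-type cyclins, which bind CDK4 or CDK6, and the complexes phosphorylate RB1 and its relatives RBL1 and RBL2. This releases the E2F transcription factors, whose targets include cyclin E, and CDK2 with cyclin E completes the step into S phase, while p27 holds CDK2 back. CDK7, the target of THZ1, is also the catalytic subunit of the CDK-activating kinase, which phosphorylates the activation loop of CDK2, CDK4 and CDK6. Pancreatic ductal adenocarcinoma is known for loss of the CDK4 and CDK6 inhibitor CDKN2A.

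Libraries held 6336140 to 20862888 reads over genes. Values are given in scaled units: the deposited signal times 1 constant for all libraries, so that the mean library sums to 1000000. Between libraries, 1 unit corresponded to anything from 6.34 to 24.7 reads. The distance between libraries is part of the result here, because the median of all genes moved by 0.25 (log2) in BxPC-3, 0.19 in MiaPaCa-2 and -0.071 in PANC-1 with THZ1 on the deposited scale. Scaled to the ERCC controls, which were added to the extracted RNA, these medians were -0.64, -0.85 and -0.31. With TMM factors they were -0.031, 0.0047 and 0.014, and with equal library sums -0.29, -0.30 and -0.064. "Rose" and "fell" below refer to the deposited scale, to limma's test over 15354 genes and to an adjusted p under 0.05. PANC-1 DMSO replicate 1 differed from the rest. It had the fewest reads, an SD of 0.52 (log2) around its group mean where other libraries had 0.10 to 0.31, and a share of mitochondrial mRNA of 1.95% against 4.04% and 4.05% in the other PANC-1 DMSO libraries. Since the spread is shared by all groups, results are also given without it. Mitochondrial mRNA moved with the treatment in every line. Its share in BxPC-3 was 4.79 to 4.90% under DMSO and 7.15 to 7.22% under THZ1, in MiaPaCa-2 4.51 to 4.73% and 6.48 to 6.95%, and in PANC-1 under THZ1 4.58 to 4.79%. Its part in the results was not tested. Every gene in the deposited table held at least 1 read in each library, so a gene missing from it may still be expressed in some lines. Of the markers of ductal epithelium, 5 of 6 were in the table and summed to 1707 to 8808 units, while CDH1 was held by 1 to 5 reads in the MiaPaCa-2 libraries. Immune, endothelial and acinar cells each had 1 marker in the table (CD14, VWF and AMY2A), at or below 3.04, 6.79 and 0.727 units. The fibroblast markers, 4 of 6 in the table, summed to 10.0 to 342 units, and both mesenchymal markers (VIM and ZEB1) to 12.5 to 2520. The highest of the fibroblast markers, COL3A1, was 120.2 ± 1.17 units with DMSO and 245 ± 0.950 with THZ1 in MiaPaCa-2, and VIM there 1413 ± 55.1 and 2413 ± 82.3 (SD, n = 3). Their part in the results was not tested.

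In BxPC-3, 5 of the 9 genes passed the test with THZ1, against 59.0% of all genes. CDK4, CDK6, CDK2 and CCND3 rose (40.0% of all genes rose) and CDKN1B fell (18.9% fell). In MiaPaCa-2, 3 of the 9 passed, against 56.3%: CDK4, CDK2 and CCND3 rose (36.5% of all genes) and 0 fell (19.8%). In PANC-1, 0 of the 9 passed with limma, against 0.501% of all genes, and edgeR on the recovered reads also called 0, while CDK4 and CDK2 had an unadjusted p under 0.05. The median log2 difference of the 9 genes was 0.32, 0.26 and 0.11 in BxPC-3, MiaPaCa-2 and PANC-1, beside 0.25, 0.19 and -0.071 for all genes. On the ERCC scale the direction turned. In BxPC-3 0 of the 9 were called higher and 7 lower, where all genes gave 1.35% and 59.0% (60.4% called). In MiaPaCa-2 0 were higher and 8 lower, where all genes gave 1.47% and 73.1% (74.6% called). In PANC-1 the same scale gave 6 genes higher and 2797 lower among the 15354 tested, against 42 and 35 on the deposited scale. With TMM factors 0 were higher and 3 lower in BxPC-3 (all genes 22.5% and 29.7%, 52.2% called), and 1 was higher and 2 lower in MiaPaCa-2 (24.9% and 26.4%, 51.3% called). With equal library sums 0 were higher and 5 lower in BxPC-3 (all genes 9.35% and 42.8%, 52.1% called), and 0 higher and 4 lower in MiaPaCa-2 (9.48% and 42.8%, 52.3% called). Without PANC-1 DMSO replicate 1, all 9 passed in BxPC-3, 7 higher and 2 lower, where 73.2% of all genes passed (49.4% and 23.8%). In MiaPaCa-2 7 then passed, 5 higher and 2 lower, where 71.4% did (46.2% and 25.2%), and in PANC-1 0 of the 9 passed, where 6.81% did, with 3 of the 9 at an unadjusted p under 0.05.

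**Figure D1:**
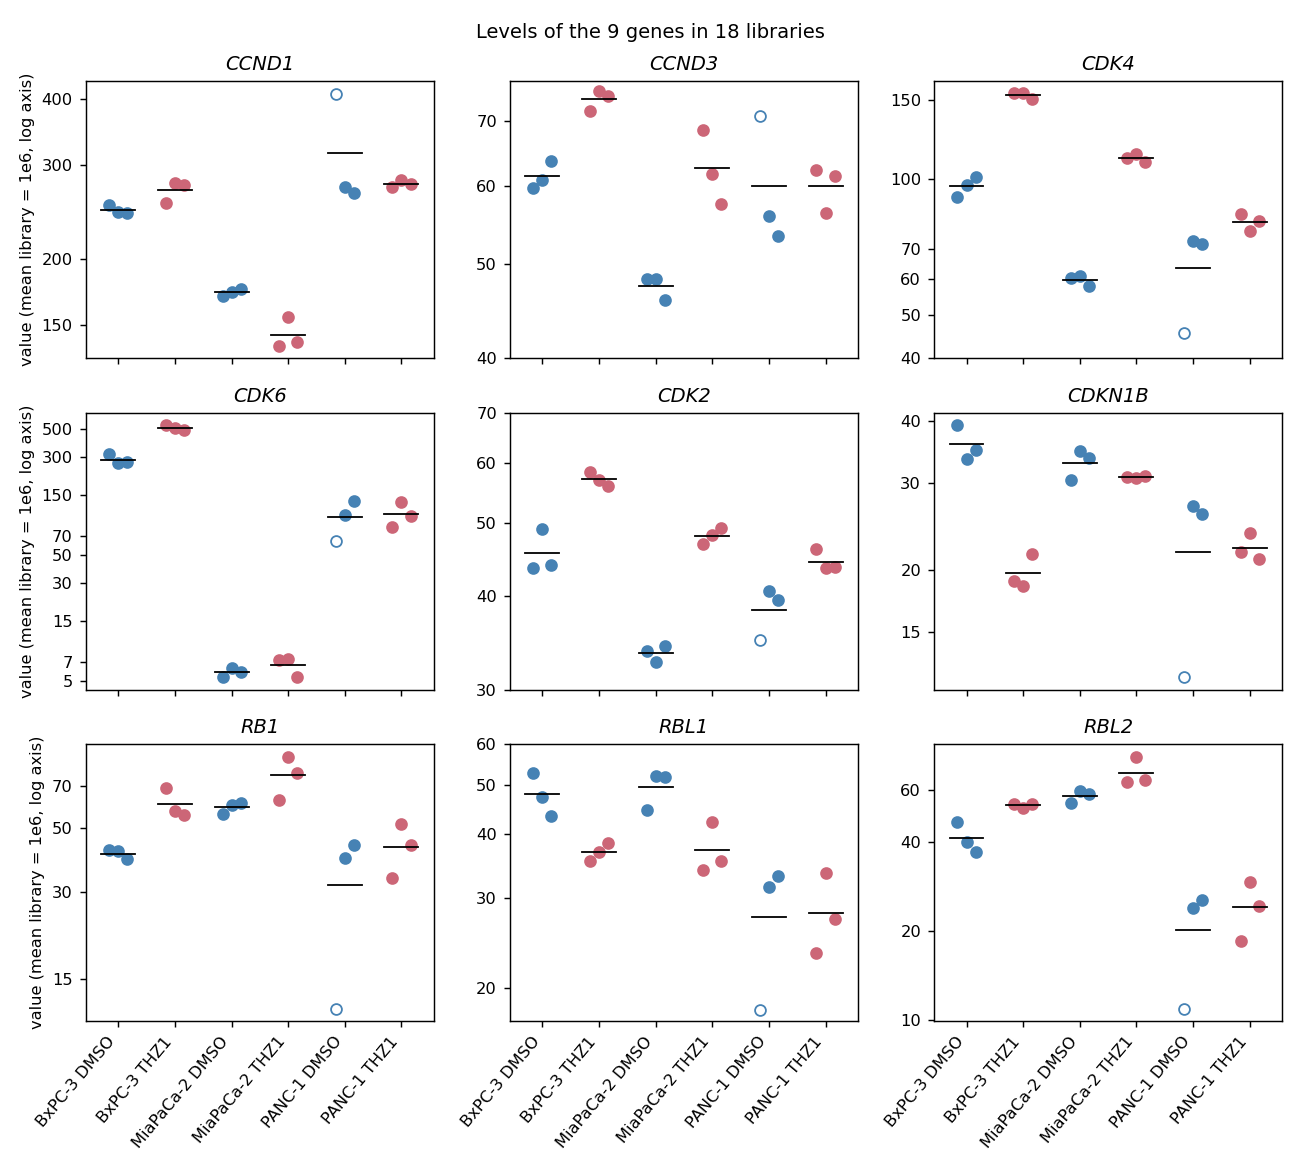
Levels of the 9 genes in each library, in scaled units on a log axis, with DMSO in blue, THZ1 in red and a line at each group mean; the open circle is PANC-1 DMSO replicate 1. CDKN1B is separated downward by THZ1 in BxPC-3, CDK4 is separated upward in all 3 lines, and CDK6 sits at 5.34 to 7.50 units in MiaPaCa-2 against 267 to 535 in BxPC-3.

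Cyclin D1 and cyclin D3 are the regulatory subunits of the complexes. CCND1 in the BxPC-3 libraries stood at 253, 245 and 244 units with DMSO and at 255, 278 and 275 with THZ1. The groups did not overlap, but the gap was narrow, and the log2 difference of 0.12 (SE 0.12) missed the threshold (limma adjusted p = 0.393). Its direction depended on the scale, with -1.06 by the ERCC controls and -0.26 by TMM factors. In MiaPaCa-2, CCND1 stood at 170.4, 173 and 176 units with DMSO and at 137, 156 and 139 with THZ1. Every THZ1 library was below every DMSO library, and the difference was -0.26 (SE 0.12, limma adjusted p = 0.0681), or -0.45 relative to the median gene. It was below 0 on all 6 scales tried (-1.55 to -0.23), and its limma adjusted p was 5.33e-05 without PANC-1 DMSO replicate 1 and 0.0414 without replicate 3 of that group. In PANC-1, CCND1 was 409 units in DMSO replicate 1 and 273 and 266 in the other DMSO libraries, against 273, 281 and 276 with THZ1. That single library set the sign: the log2 difference was -0.16 with it and 0.041 without it, and neither passed (limma adjusted p = 0.402 and 0.74).

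CCND3 rose in BxPC-3 from 59.7, 60.8 and 63.6 units with DMSO to 71.7, 75.0 and 74.2 with THZ1. This was 0.26 on the log2 scale (SE 0.10, limma adjusted p = 0.0298), 0.0081 above the median gene's own shift. The call was lost without BxPC-3 DMSO replicate 1 (adjusted p = 0.0843) or 2 (0.0716) and without THZ1 replicate 2 (0.078) or 3 (0.0703). In MiaPaCa-2, CCND3 rose from 48.3, 48.2 and 45.8 units to 68.4, 61.7 and 57.6. Again no DMSO library reached the lowest THZ1 library, and the log2 difference was 0.39 (SE 0.10, limma adjusted p = 0.00263). By the ERCC controls the values of CCND3 in BxPC-3 and MiaPaCa-2 were -0.91 and -0.88. In PANC-1 its means were 60.0 ± 9.38 with DMSO and 60.0 ± 3.29 with THZ1 (SD, n = 3), a difference of 0.010 (limma adjusted p = 0.954).

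The remaining D-type cyclin, CCND2, did not pass the filter on low values. Its libraries held 2 to 26 reads, the highest in a PANC-1 DMSO library, so no change in it was detectable at this depth. CCND1 and CCND3 were thus the D-type cyclins measured in these lines.

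CDK4, the kinase partner of the D-type cyclins present in all 3 lines, had the largest rise of the group in MiaPaCa-2. There it was 60.4, 60.9 and 57.8 units with DMSO and 112, 114 and 109 with THZ1. The groups stood far apart, with a log2 difference of 0.89 (SE 0.12, limma adjusted p = 1.67e-05), which placed CDK4 at the percentile 88.1 of all genes tested. In BxPC-3 it rose from 91.1, 96.8 and 101 units to 155, 155 and 150.5, or 0.67 (SE 0.12, limma adjusted p = 0.000238; percentile 73.6). Relative to the median gene these were 0.70 in MiaPaCa-2 and 0.42 in BxPC-3. Against the ERCC controls CDK4 measured -0.39 in MiaPaCa-2 and -0.51 in BxPC-3, so that it was higher relative to most other mRNAs but not relative to the added controls. With TMM factors it was 0.65 in MiaPaCa-2 (limma adjusted p = 0.00835) and 0.28 in BxPC-3 (0.222).

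PANC-1 showed CDK4 at 45.6, 72.7 and 71.6 units with DMSO and 83.6, 76.7 and 80.8 with THZ1. The groups did not overlap, which was so for 17.1% of all genes in this line, for 76.1% in BxPC-3 and for 73.8% in MiaPaCa-2. The log2 difference in PANC-1, 0.37 (SE 0.12, limma adjusted p = 0.134), became 0.15 (0.116) without the low DMSO replicate 1. It passed the test without DMSO replicate 2 (0.48, adjusted p = 0.0451) or 3 (0.47, 0.0298). In BxPC-3 all 9 genes were free of overlap, in MiaPaCa-2 7 (not CDK6 and CDKN1B) and in PANC-1 2 (CDK4 and CDK2).

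CDK4 is a gene whose reads may be shared. It lies on chromosome 12 (57747727 to 57756013, minus strand, GENCODE v29 on GRCh38), and 51.9% of its coding-transcript exon bases are also covered by exons of TSPAN31 on the opposite strand. The library kit keeps strand, but whether the counting used it is not given in the sources used here. TSPAN31 itself, a tetraspanin gene, was far lower than CDK4: 9.91 ± 0.793 units with DMSO and 18.7 ± 1.62 with THZ1 in BxPC-3, and 4.68 ± 0.161 and 7.66 ± 0.645 in MiaPaCa-2 (SD, n = 3). It rose in both lines too, by 0.85 and 0.61 (limma adjusted p = 0.00042 and 0.00628). Among the other members, opposite-strand exons covered 0.609 to 12.4% of the exon bases by any 1 gene in CCND1, CCND3, CDK2, RBL1 and RBL2, and none in CDK6, CDKN1B and RB1. For CCND1 the gene was LTO1 (11.3%), listed as ORAOV1. ORAOV1 fell in MiaPaCa-2 from 20.8 ± 0.997 to 7.44 ± 0.776 units (-1.37, limma adjusted p = 4.38e-08). It also fell in BxPC-3 from 18.3 ± 0.975 to 10.8 ± 1.07 (-0.71, limma adjusted p = 3.82e-05). Its part in the CCND1 values was not tested.

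The promoter of CDK4 is shown because CDK4 was the member with the largest difference in MiaPaCa-2. The letters are the 250 bases before the RefSeq start (GRCh38.p14, chr12:57752311-57752560, minus strand, 5′ to 3′), with each E-box CACGTG, the motif that MYC and its partners bind, in capitals.
CDK4: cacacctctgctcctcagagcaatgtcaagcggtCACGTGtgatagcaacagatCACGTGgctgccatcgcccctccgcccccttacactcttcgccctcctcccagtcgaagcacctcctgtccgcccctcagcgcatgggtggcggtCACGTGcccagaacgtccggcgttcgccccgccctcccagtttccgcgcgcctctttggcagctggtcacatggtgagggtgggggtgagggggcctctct
The motif, which reads the same on both strands, occurs 3 times, starting 216, 196 and 101 bases before the start. Of 35116 RefSeq windows of this length, 6.34% hold it at least once. The window lies inside the gene as GENCODE v29 spans it (57747727 to 57756013, minus strand), and the bases before that GENCODE start were not searched. A match is a description of the letters and not of binding in these cells.

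CDK6, the other cyclin D kinase, separated the lines more than the treatment did. BxPC-3 held 319, 267 and 271 units with DMSO and 535, 508 and 489 with THZ1. The groups were well apart, and CDK6 rose by 0.84 (SE 0.21, limma adjusted p = 0.00231; percentile 82.3), the largest rise among the 9 genes in this line. That was 0.59 above the median gene, 0.45 with TMM factors (adjusted p = 0.159) and -0.35 on the ERCC scale. In MiaPaCa-2, CDK6 was almost absent: 5.34, 6.36 and 5.83 units with DMSO and 7.33, 7.50 and 5.37 with THZ1, from 99 to 132 and 51 to 84 reads. The treated and control libraries overlapped, and the difference of 0.17 (SE 0.21) did not pass (limma adjusted p = 0.521). PANC-1 was intermediate and scattered, with 64.4, 103 and 134 units under DMSO and 83.3, 132 and 101 under THZ1. Its difference was 0.11, or -0.17 without DMSO replicate 1 (limma adjusted p = 0.745 and 0.533).

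CDK2, which works with cyclins E and A after the D-type cyclins, rose in BxPC-3 from 43.5, 49.0 and 44.0 units to 58.4, 57.0 and 55.9 (0.32, SE 0.076, limma adjusted p = 0.00162). In MiaPaCa-2 it rose from 33.8, 32.7 and 34.3 units to 46.9, 48.1 and 49.1 (0.50, SE 0.076, limma adjusted p = 3.32e-05). Both pairs of groups were free of overlap, and the changes were 0.073 and 0.32 above the median gene. By the ERCC controls they were -0.84 and -0.76, and in BxPC-3 the TMM value was -0.057. PANC-1 gave 34.9, 40.5 and 39.5 units with DMSO and 46.1, 43.5 and 43.7 with THZ1. All its THZ1 libraries were above the DMSO libraries, with a difference of 0.21 (limma adjusted p = 0.15), or 0.15 (0.205) without DMSO replicate 1, and of -0.068 on the ERCC scale.

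**Figure D2:**
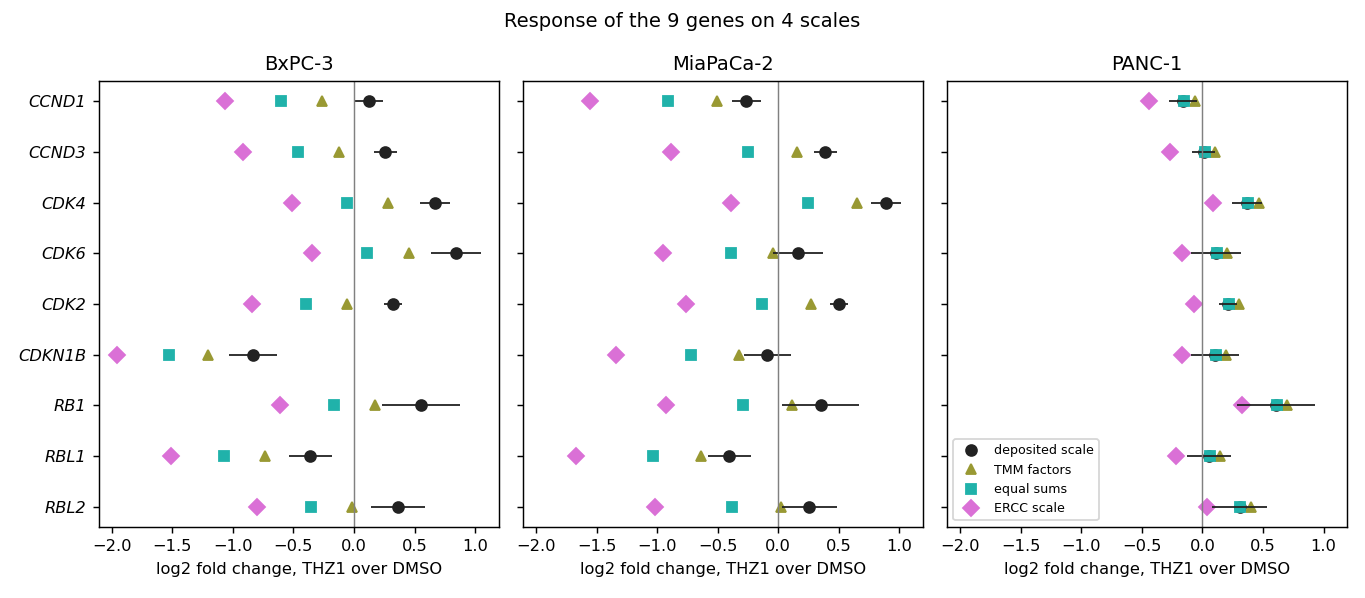
THZ1 minus DMSO of each gene in each line as log2 differences on 4 scales: the deposited scale (black circles, bars are the SE of the fit), TMM factors (triangles), equal library sums (squares) and ERCC controls (diamonds). CDKN1B in BxPC-3 lies between -1.96 and -0.83 on these scales, while CDK4 in BxPC-3 runs from -0.51 to 0.67.

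CDKN1B, which encodes the CDK inhibitor p27, was the gene of the group that passed in BxPC-3 with a lower value under THZ1, on every scale. Its DMSO libraries held 39.2, 33.5 and 34.9 units and its THZ1 libraries 19.0, 18.6 and 21.6. Each treated library was well under each control library, and CDKN1B fell by 0.83 on the log2 scale (SE 0.20, limma adjusted p = 0.00172), 1.78-fold. Relative to the median gene the change was -1.08, at the percentile 9.33 of all genes. Over the 6 scales tried the change ran from -1.96 to -0.78, with an adjusted p of 4.41e-06 on the ERCC scale and 0.000869 with TMM factors.

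On the deposited scale CDKN1B was called in neither of the other lines. In MiaPaCa-2, CDKN1B was 30.4, 34.7 and 33.6 units with DMSO and 30.9, 30.7 and 30.9 with THZ1, so that the groups overlapped, and the difference was -0.089 (SE 0.20, limma adjusted p = 0.731). That is its value on the deposited scale only. On the ERCC scale 8 of the 9 genes and 73.1% of all genes were called lower in MiaPaCa-2, so the lack of a call depends on the scale chosen. The difference of CDKN1B in MiaPaCa-2 kept its negative sign on every scale tried, so a fall confined to BxPC-3 is not shown. In PANC-1 it was 12.2, 26.98 and 26.0 units with DMSO and 21.7, 23.7 and 21.1 with THZ1. DMSO replicate 1, with 77 reads for this gene, was the lowest of the 6 libraries, and the other DMSO libraries were the highest. The log2 difference in PANC-1 was therefore 0.11 with that library (limma adjusted p = 0.742) and -0.25 without it (0.092).

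The test of the difference itself covered this. The response of CDKN1B in PANC-1 was 0.94 above that in BxPC-3 (SE 0.28, limma adjusted p = 0.0129), a test that 42.7% of all genes passed, 11.9% of all genes with a higher response in PANC-1. The difference was 0.58 (adjusted p = 0.000218) without PANC-1 DMSO replicate 1 and 0.91 to 1.79 over the 6 scales. MiaPaCa-2 against BxPC-3 gave 0.74 (SE 0.28, limma adjusted p = 0.0909), 2.05e-05 without that library, and PANC-1 against MiaPaCa-2 gave 0.20 (limma adjusted p = 0.604), or -0.16 (0.269) without it.

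The promoter of CDKN1B is shown because this was the member with the fall that held on all scales. The 250 bases before its RefSeq start (GRCh38.p14, chr12:12717118-12717367, plus strand, 5′ to 3′) carry the CCAAT box, the motif of the factor NF-Y, in capitals.
CDKN1B: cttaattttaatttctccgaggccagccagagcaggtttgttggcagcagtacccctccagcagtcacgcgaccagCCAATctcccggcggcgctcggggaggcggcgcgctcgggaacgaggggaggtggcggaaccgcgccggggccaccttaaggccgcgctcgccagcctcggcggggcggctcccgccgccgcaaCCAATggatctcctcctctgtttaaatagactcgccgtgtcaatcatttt
CCAAT was searched on both strands and occurs 2 times, starting 174 and 50 bases before the start; 32.0% of all windows hold it. The gene spans 12715058 to 12722371 on the plus strand of chromosome 12 (GENCODE v29, GRCh38). The window thus lies inside that span, and the bases before the GENCODE start were not searched. Here too a match describes the letters and not binding in these cells.

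RB1, the pocket protein that the cyclin D kinases phosphorylate first, was higher in every THZ1 library of BxPC-3: 41.9, 41.6 and 39.0 units with DMSO against 69.1, 57.2 and 55.6. The log2 difference of 0.55 carried a wide shared error (SE 0.32) and did not pass (limma adjusted p = 0.149), although without PANC-1 DMSO replicate 1 its adjusted p was 0.000284. In MiaPaCa-2, RB1 was 56.0, 60.3 and 61.2 units with DMSO and 62.8, 88.5 and 77.7 with THZ1. These groups did not overlap either, but the treated libraries were scattered, and the difference was 0.35 (limma adjusted p = 0.373; 0.013 without the PANC-1 library). The ERCC controls gave -0.61 in BxPC-3 and -0.93 in MiaPaCa-2. PANC-1 held 11.8, 39.5 and 43.9 units with DMSO and 33.7, 51.9 and 43.8 with THZ1. DMSO replicate 1 had only 75 reads for RB1, and with it the difference was 0.61 (limma adjusted p = 0.263), at the percentile 99.4 of all genes. Without it the difference was 0.029 (limma adjusted p = 0.94), at the percentile 51.1, while without DMSO replicate 3 it passed (0.93, 0.0453).

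RBL1, encoding p107, had lower values with THZ1 on the deposited scale in BxPC-3 and MiaPaCa-2, where RB1 had higher ones. In BxPC-3 it was 52.7, 47.4 and 43.5 units with DMSO and 35.5, 36.8 and 38.5 with THZ1. In MiaPaCa-2 it was 44.6, 52.1 and 51.7 units with DMSO and 34.0, 42.2 and 35.5 with THZ1. All treated libraries of both lines lay under the controls of their line, with differences of -0.36 (SE 0.18, limma adjusted p = 0.094) and -0.40 (SE 0.18, 0.0648) that did not pass. Both were below 0 on all 6 scales (-1.52 to -0.30 and -1.67 to -0.37) and at the percentiles 20.4 and 20.1 of all genes. Without PANC-1 DMSO replicate 1 their adjusted p was 0.00367 and 0.0015, and in MiaPaCa-2 it was 0.0439 without PANC-1 DMSO replicate 3. PANC-1 had 18.2, 31.5 and 33.1 units with DMSO and 23.4, 33.5 and 27.3 with THZ1, an overlap with a difference of 0.054, or of -0.21 (limma adjusted p = 0.302) without the low first replicate.

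The promoter of RBL1 is shown because RBL1, unlike RB1 and RBL2, had lower values with THZ1 in BxPC-3 and MiaPaCa-2 on the deposited scale, differences that did not pass. E2F factors bind sites of the kind marked here. The 250 bases before its RefSeq start (GRCh38.p14, chr20:37095998-37096247, minus strand, 5′ to 3′) hold matches to the E2F-type set TTTCCCGC, TTTCGCGC, TTTGCCGC and TTTGGCGC, in capitals.
RBL1: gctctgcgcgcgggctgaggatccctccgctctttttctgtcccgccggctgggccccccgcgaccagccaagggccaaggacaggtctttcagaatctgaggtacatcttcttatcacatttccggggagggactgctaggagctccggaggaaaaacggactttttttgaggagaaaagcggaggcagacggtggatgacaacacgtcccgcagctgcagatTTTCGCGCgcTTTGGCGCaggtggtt
TTTCGCGC starts 26 bases and TTTGGCGC 16 bases before the start. Both strands were searched, no motif overlapped another, and 2.79% of all windows hold 1 of the set. A match describes the letters and not binding in these cells, and its part in the RBL1 values was not tested. Of the 9 genes, 7 have windows in the RefSeq table, 11 in all, and the windows of RBL1 alone held a match to this set. The RB1 window (chr13:48476200-48476449) lies inside the gene, whose GENCODE v29 start is 48303726. The bases before that start of RB1 were therefore not searched. CCND1 and CDK2 are named only.

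RBL2, which encodes p130, had higher values with THZ1 on the deposited scale in both lines where RB1 had. BxPC-3 held 46.7, 40.0 and 37.0 units with DMSO and 53.7, 52.0 and 53.7 with THZ1, and MiaPaCa-2 held 54.0, 59.2 and 57.9 against 63.6, 77.5 and 64.6. No groups overlapped in these lines. The differences were 0.36 and 0.26 (limma adjusted p = 0.179 and 0.353, and 0.0062 and 0.0461 without PANC-1 DMSO replicate 1), and -0.80 and -1.02 on the ERCC scale. PANC-1 held 10.9, 24.0 and 25.5 units with DMSO and 18.5, 29.2 and 24.3 with THZ1. The first replicate was again the lowest, and without it the difference of 0.31 became -0.063 (limma adjusted p = 0.398 and 0.835).

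**Figure D3:**
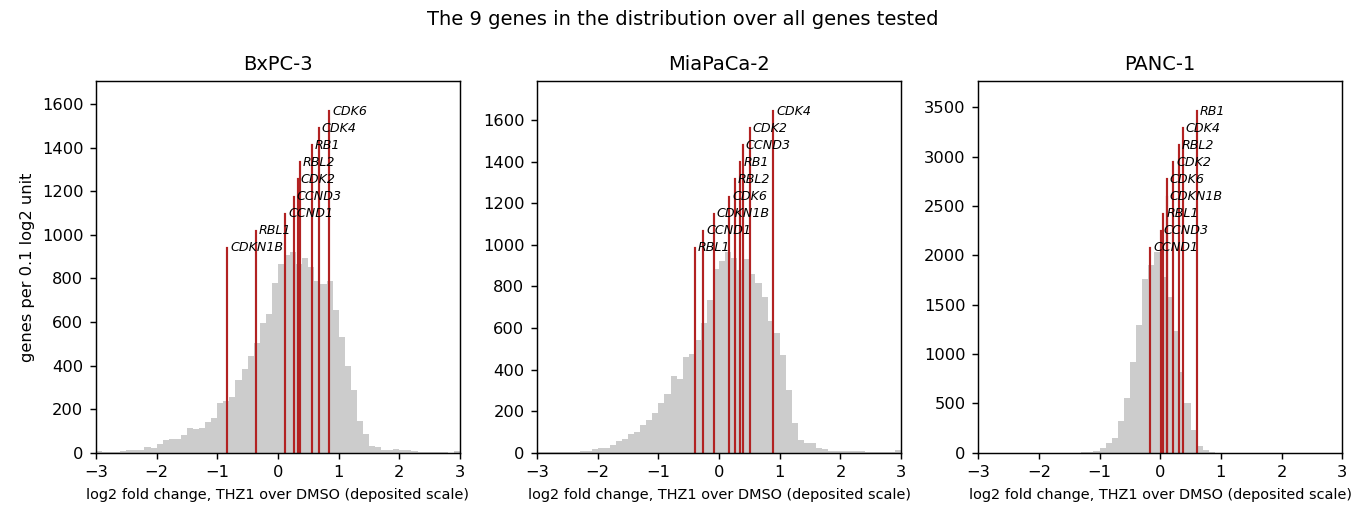
Distribution of the log2 difference between THZ1 and DMSO over all 15354 tested genes, in bins of 0.1 on the deposited scale, with a red line for each of the 9 genes, by line. CDKN1B in BxPC-3 lies in the lower tail at -0.83 and CDK4 in MiaPaCa-2 in the upper part at 0.89, while the 9 genes of PANC-1 lie between -0.16 and 0.61.

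A ratio of 2 genes within a library depends little on the scale between libraries. Each value had 1 unit added before the log, so low genes, such as CDK6 in MiaPaCa-2, keep some dependence on it. RBL1 over RB1 was lower with THZ1 in all 3 lines. Its log2 ratio went from 0.22 ± 0.091 to -0.69 ± 0.22 in BxPC-3 and from -0.26 ± 0.058 to -1.01 ± 0.13 in MiaPaCa-2 (SD, n = 3), without overlap. In PANC-1 it was -0.046 ± 0.54 and -0.60 ± 0.079, a difference of -0.55 that was -0.24 without DMSO replicate 1. CDKN1B over CCND1 was -2.75 ± 0.088 and -3.71 ± 0.11 in BxPC-3, a difference of -0.95 without overlap, whereas in MiaPaCa-2 the difference was 0.18 with overlap.

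CDK2 over CDK4 differed by -0.35 between THZ1 and DMSO in BxPC-3 and by -0.39 in MiaPaCa-2, without overlap in either line. In MiaPaCa-2 the ratio CCND3 over CCND1 was higher by 0.65 and CDK6 over CDK4 differed by -0.72, both without overlap. RBL2 over RB1 differed by -0.19, -0.092 and -0.30 in BxPC-3, MiaPaCa-2 and PANC-1, and in PANC-1 by -0.091 without DMSO replicate 1. Over the 6 ratios and 3 lines, 10 of 18 comparisons were free of overlap, 4 in BxPC-3, 4 in MiaPaCa-2 and 2 in PANC-1. The share over ratios of other gene pairs was not computed. Among single genes, 76.1% in BxPC-3, 73.8% in MiaPaCa-2 and 17.1% in PANC-1 were free of overlap. With 3 libraries against 3, the exact two-sided permutation test cannot go below p = 0.1, and the smallest Benjamini-Hochberg adjusted value over the 18 tests was 0.18.

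**Figure D4:**
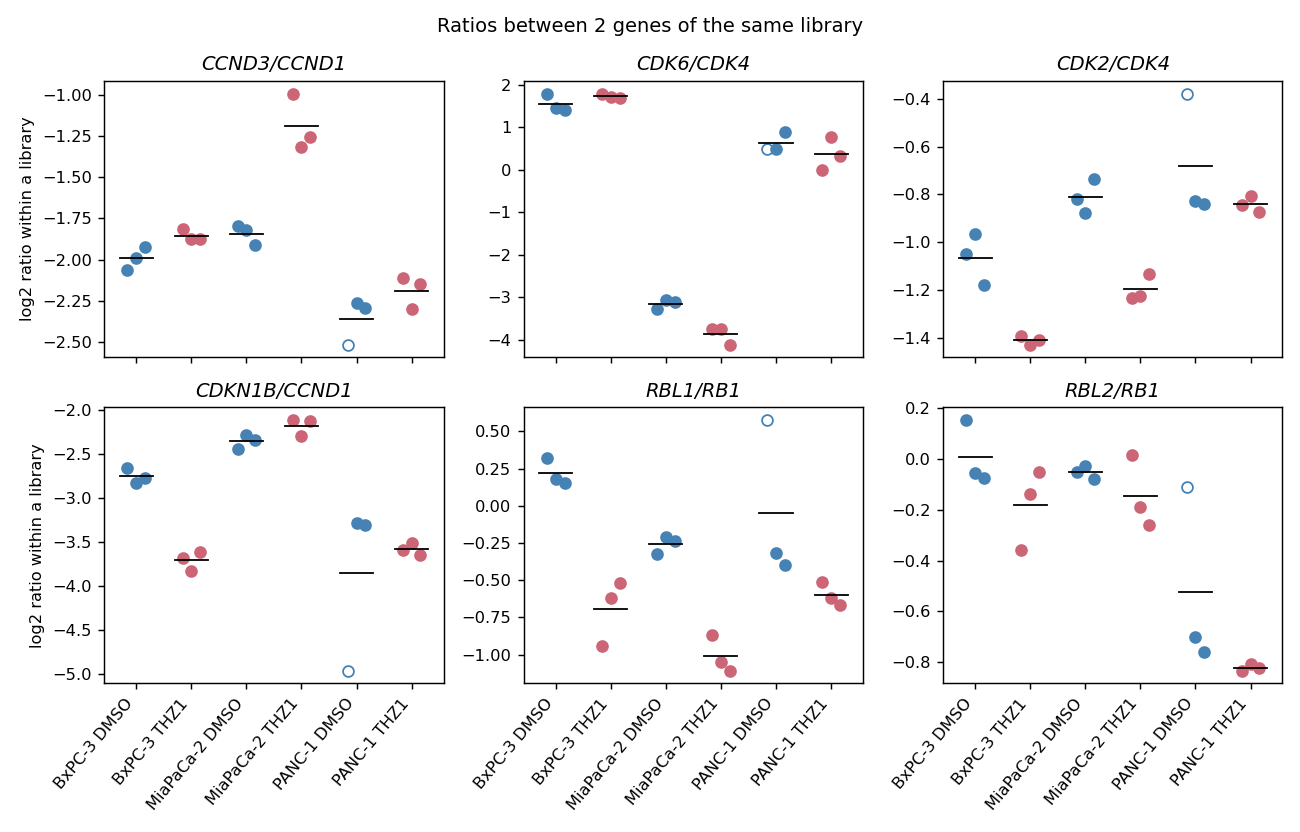
Log2 ratios of member pairs within each library, by line, with DMSO in blue and THZ1 in red; the open circle is PANC-1 DMSO replicate 1 and the line is the group mean. RBL1 over RB1 moves down with THZ1 in BxPC-3 (0.22 to -0.69) and MiaPaCa-2 (-0.26 to -1.01), and CDK6 over CDK4 lies near -3.15 in MiaPaCa-2 with DMSO.

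Responses were compared between lines by the difference of their log2 differences. On the deposited scale the response in PANC-1 was below that in MiaPaCa-2 for CDK4 (-0.52, SE 0.18, limma adjusted p = 0.029), CCND3 (-0.38, SE 0.14, 0.0373) and CDK2 (-0.29, SE 0.11, 0.0399), a test that 38.9% of all genes passed, 27.4% with a lower response in PANC-1. These differences turned to 0.48, 0.61 and 0.69 on the ERCC scale, and with TMM factors they were -0.19, -0.046 and 0.036. On neither of these scales was CDK4 called, and with TMM factors the 1 gene called was CCND1, with a higher response in PANC-1 (0.44). For CDK4 the difference was -0.74 (adjusted p = 9.42e-08) without PANC-1 DMSO replicate 1, for CCND3 -0.26 (0.028) and for CDK2 -0.36 (0.00192). All 3 calls were lost without MiaPaCa-2 DMSO replicate 3, MiaPaCa-2 THZ1 replicate 1 or 2, or PANC-1 THZ1 replicate 2 or 3. Between MiaPaCa-2 and BxPC-3, limma called 0 of the 9 (13.8% of all genes), while CCND1, CDK6 and CDKN1B had an unadjusted p under 0.05 and edgeR called 0. Without PANC-1 DMSO replicate 1, 4 were called there, against 35.3% of all genes: CCND1 (-0.39), CDK4 (0.22), CDK6 (-0.67) and CDKN1B (0.74).

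Without the drug, the lines differed in their stock of these mRNAs on the deposited scale. MiaPaCa-2 was lower than BxPC-3 in 5 of the 9 genes and higher in 0 (62.6% of all genes called, 25.1% lower and 37.5% higher): CCND1 by -0.51, CCND3 by -0.36, CDK4 by -0.68, CDK2 by -0.43 and CDK6 by -5.39. By the ERCC controls 1 of the 9 was called higher and 1 lower, and CCND3 differed by 0.0052. Of 15354 genes, 7646 were then higher and 2361 lower. PANC-1 differed from BxPC-3 in 7 (59.1% of all genes, 33.7% higher and 25.4% lower), with CCND1 higher (0.32) and CDK2, CDK4, CDK6, CDKN1B, RBL1 and RBL2 lower (-0.24 to -1.56). These 6 ran from -0.18 to -1.27 without PANC-1 DMSO replicate 1, with CDKN1B at -0.42 in place of -0.78, CDK4 at -0.41 in place of -0.63 and RBL2 at -0.71 in place of -1.08. PANC-1 differed from MiaPaCa-2 in 8 (60.8%, 28.0% higher and 32.8% lower), with CCND1, CCND3, CDK2 and CDK6 higher and CDKN1B, RB1, RBL1 and RBL2 lower. Without that library CDKN1B moved from -0.66 to -0.30, RB1 from -1.07 to -0.49 and CCND3 from 0.32 to 0.20.

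CDK6 had the widest range. Its DMSO means were 286 ± 28.6 units in BxPC-3, 100.4 ± 34.7 in PANC-1 and 5.84 ± 0.51 in MiaPaCa-2 (SD, n = 3), and all 3 steps passed. MiaPaCa-2 was 41.8-fold under BxPC-3 (log2 -5.39, SE 0.21, limma adjusted p = 6.35e-13) and lay between -5.60 and -5.09 on every scale. The step between PANC-1 and MiaPaCa-2 was 3.83 (limma adjusted p = 8.33e-11). CCND1 ranked PANC-1 (316 ± 80.8 units), BxPC-3 (247 ± 4.76) and MiaPaCa-2 (173 ± 2.56). PANC-1 and BxPC-3 differed by 0.32 (limma adjusted p = 0.0273), which was 0.12 (0.0528) without PANC-1 DMSO replicate 1.

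For CDK4 the order was BxPC-3 (96.3 ± 4.95 units), PANC-1 (63.3 ± 15.3) and MiaPaCa-2 (59.7 ± 1.66), the last pair differing by 0.052 (limma adjusted p = 0.741), or by 0.27 (0.00027) without PANC-1 DMSO replicate 1 and by -0.24 on the ERCC scale. CDK2 ran from 45.5 ± 3.05 units in BxPC-3 through 38.3 ± 3.01 in PANC-1 to 33.6 ± 0.84 in MiaPaCa-2, and each step passed. By the ERCC controls the step of CDK2 between PANC-1 and MiaPaCa-2 was -0.11 in place of 0.18. CCND3 had means of 61.4 ± 2.02 units in BxPC-3 and 60.0 ± 9.38 in PANC-1, which did not differ beyond their spread (limma adjusted p = 0.72), and was lower in MiaPaCa-2 (47.5 ± 1.39), a step from BxPC-3 that was 0.0052 on the ERCC scale.

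The inhibitor and the pocket proteins had their lowest means in PANC-1. CDKN1B was 35.9 ± 2.96 units in BxPC-3, 32.9 ± 2.26 in MiaPaCa-2 and 21.7 ± 8.29 in PANC-1, and BxPC-3 and MiaPaCa-2 did not differ beyond their spread (limma adjusted p = 0.619). RBL2 was 57.0 ± 2.69 units in MiaPaCa-2, 41.2 ± 5.00 in BxPC-3 and 20.1 ± 8.02 in PANC-1. PANC-1 was 2.92-fold under MiaPaCa-2 for RBL2 (limma adjusted p = 1.65e-05) and -1.17 (2.07e-08) on the log2 scale without its first replicate. RBL1 was 49.5 ± 4.23 units in MiaPaCa-2 and 47.8 ± 4.61 in BxPC-3 (limma adjusted p = 0.833) against 27.6 ± 8.22 in PANC-1. RB1 was 59.2 ± 2.82 units in MiaPaCa-2, 40.8 ± 1.61 in BxPC-3 and 31.8 ± 17.4 in PANC-1. BxPC-3 and PANC-1 did not differ in RB1 beyond their spread, with -0.55 (limma adjusted p = 0.152) and 0.029 (0.858) without the PANC-1 library.

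Levels of different genes were compared per kilobase of annotated exon. In DMSO, CCND1 was highest of the 9 in each line, with 56.1 units per kilobase in BxPC-3, 39.3 in MiaPaCa-2 and 71.7 in PANC-1, and CDK4 came next with 46.4, 28.8 and 30.5. With THZ1, CDK4 was highest in BxPC-3 (74.0 against 61.2 for CCND1) and in MiaPaCa-2 (53.7 against 32.7), while in PANC-1 CCND1 stayed highest (62.9 against 38.7). The pocket proteins were among the lower members, at 8.15 to 8.40 units per kilobase in BxPC-3 with DMSO. CDK4 exceeded CDK6 per kilobase 1.92 ± 0.27 times in BxPC-3 with DMSO, 3.67 ± 0.56 times in PANC-1 and 58.0 ± 5.20 times in MiaPaCa-2 (SD, n = 3). CCND1 exceeded CCND3 3.61, 4.67 and 3.27 times in BxPC-3, PANC-1 and MiaPaCa-2 with DMSO, and in MiaPaCa-2 2.07 times with THZ1.

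The other parts of the pathway were described from gene lists, beside the all-gene medians of 0.25 in BxPC-3, 0.19 in MiaPaCa-2 and -0.071 in PANC-1. The list counts stand beside the shares of all genes given above: 40.0% rose and 18.9% fell in BxPC-3, 36.5% rose and 19.8% fell in MiaPaCa-2, and 0.501% passed in PANC-1. On the ERCC scale 1.35% of all genes were higher and 59.0% lower in BxPC-3, and 1.47% and 73.1% in MiaPaCa-2. In PANC-1 6 of 15354 genes were then higher and 2797 lower. Among the other CDK inhibitors, 4 of 6 were measured, and CDKN2A and CDKN2B are not analysed here. In BxPC-3, 3 rose and 1 fell, in MiaPaCa-2 2 rose, and in PANC-1 0 passed, with list medians of 0.72, 0.35 and 0.036, and -0.16, -0.85 and -0.18 on the ERCC scale. CDKN2C, which blocks CDK4 and CDK6, fell in BxPC-3 from 18.9 ± 0.309 to 10.0 ± 0.107 units (-0.85, limma adjusted p = 2.32e-05; -1.93 on the ERCC scale). Its relative CDKN2D rose in BxPC-3 from 2.87 to 9.68 units (1.47, limma adjusted p = 1.25e-06) and still measured 0.46 on the ERCC scale. In MiaPaCa-2, CDKN2D rose from 8.32 to 14.7 (0.74, limma adjusted p = 0.0012), which was -0.44 on the ERCC scale. CDKN1C (p57) was low and rose on both scales, by 1.04 in BxPC-3 and 1.58 in MiaPaCa-2 (limma adjusted p = 0.000147 and 2.31e-06; 0.50 and 0.83 on the ERCC scale). CDKN1A (p21), a relative of p27, rose in BxPC-3 from 74.9 ± 1.07 to 98.7 ± 1.84 units (0.39, limma adjusted p = 0.0205; -0.78 on the ERCC scale). In MiaPaCa-2, CDKN1A was 5.67 ± 0.522 units with DMSO, against 74.9 in BxPC-3, a log2 difference of -3.51 (limma adjusted p = 7.43e-13).

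The CDK-activating kinase holds 3 genes. CCNH and MNAT1, its cyclin H and assembly subunits, rose in BxPC-3 (0.67 and 0.52) and MiaPaCa-2 (0.34 and 0.56), with negative values of -0.93 to -0.48 on the ERCC scale. CDK7, the kinase that THZ1 binds, fell in BxPC-3 from 14.0 ± 0.505 to 10.2 ± 1.29 units (-0.43, limma adjusted p = 0.0155). In MiaPaCa-2 it was 45.7 ± 1.87 and 46.2 ± 2.05 units (0.016, limma adjusted p = 0.937). None passed in PANC-1 (of 3), while without PANC-1 DMSO replicate 1 CCNH (0.31) and MNAT1 (0.36) passed there.

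Of the other G1/S cyclins and kinases, 6 were tested. In BxPC-3 1 rose and 2 fell, in MiaPaCa-2 1 rose and 3 fell and in PANC-1 0 passed, with medians of -0.30, -0.48 and 0.29. The PANC-1 median was -0.0082 without PANC-1 DMSO replicate 1. By the ERCC controls 0 were called higher, and 5, 6 and 0 lower in BxPC-3, MiaPaCa-2 and PANC-1. CDC25A, the phosphatase that activates CDK2, fell in BxPC-3 from 58.0 to 36.3 units (-0.66, limma adjusted p = 7.28e-07) and in MiaPaCa-2 from 40.7 to 19.2 (-1.04, 8.55e-09), and was lower on every scale in both. CCNA2, cyclin A2, fell in BxPC-3 (-1.01, limma adjusted p = 0.00272), and the E cyclins CCNE1 and CCNE2 fell in MiaPaCa-2 (-0.50 and -0.59). The rising gene in both lines was CCNC, cyclin C, at 0.67 and 0.44 (-0.49 and -0.84 on the ERCC scale).

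Among the 10 E2F and DP factors, 2 rose and 6 fell in BxPC-3, 2 rose and 5 fell in MiaPaCa-2 and 0 passed in PANC-1 (medians -0.38, -0.52 and -0.017). By the ERCC controls 0 were called higher, and 9, 10 and 3 lower in BxPC-3, MiaPaCa-2 and PANC-1. E2F8, a repressor of the family, fell in BxPC-3 from 9.61 to 2.18 units (-1.74, limma adjusted p = 1.75e-06) and in MiaPaCa-2 from 14.3 to 2.76 (-2.05, 3.97e-07). E2F2, an activator, fell in both lines (-0.50 and -1.35). Both rising genes in each line were the dimerisation partners TFDP1 (0.63 and 0.64) and TFDP2 (0.66 and 0.62), which measured -0.66 to -0.50 on the ERCC scale.

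Of the 18 E2F target genes, on the deposited scale, in BxPC-3 14 rose and 2 fell, in MiaPaCa-2 15 rose and 0 fell, and the medians were 0.71 and 0.69. In PANC-1 0 passed (median 0.12). Scaled by the ERCC controls, 0 were called higher and 10 lower in BxPC-3, and 0 higher and 14 lower in MiaPaCa-2 (medians -0.46 and -0.60), where 59.0% and 73.1% of all genes were lower. With TMM factors 8 were higher and 3 lower in BxPC-3 (all genes 22.5% and 29.7%), and 11 higher and 0 lower in MiaPaCa-2 (24.9% and 26.4%). With equal library sums 2 were higher and 5 lower in BxPC-3 (9.35% and 42.8%), and 3 higher and 3 lower in MiaPaCa-2 (9.48% and 42.8%). Examples were TYMS, thymidylate synthase, at 0.97 and 0.92, and POLA1, the DNA polymerase alpha subunit, at 0.96 and 0.78. CDT1, the licensing factor, fell in BxPC-3 from 128 to 68.4 units (-0.90, limma adjusted p = 0.000446) and was 0.062 in MiaPaCa-2 (0.797). The other gene of the list that fell in BxPC-3 was ORC1, of the origin recognition complex (-0.19, limma adjusted p = 0.0438), while CDC6, a loading factor, passed in neither line (-0.24 and -0.018).

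The DREAM and MuvB subunits, which with RBL1 or RBL2 repress cell-cycle genes, split: 2 of 7 rose and 2 fell in BxPC-3, 2 rose and 3 fell in MiaPaCa-2 and 0 passed in PANC-1 (medians 0.060, 0.23 and 0.090). The PANC-1 median was -0.074 without PANC-1 DMSO replicate 1. By the ERCC controls 0 were called higher, and 5, 7 and 1 lower in BxPC-3, MiaPaCa-2 and PANC-1. LIN54 (-0.73 and -0.74) and LIN52 (-0.62 and -0.42) fell in BxPC-3 and MiaPaCa-2, and LIN9 fell in MiaPaCa-2 (-0.57). MYBL2, the activator that replaces the pocket protein, rose from 302 to 588 units in BxPC-3 (0.96) and from 439 to 810 in MiaPaCa-2 (0.88), with -0.23 and -0.41 on the ERCC scale.

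Of 11 genes for turnover and chaperoning of cyclin D, CDK4 and p27, 4 rose and 2 fell in BxPC-3, 4 rose and 3 fell in MiaPaCa-2 and 0 passed in PANC-1 (medians 0.35, 0.19 and 0.14). By the ERCC controls 0 were called higher, and 9, 9 and 3 lower in BxPC-3, MiaPaCa-2 and PANC-1 (medians -0.76, -1.07 and -0.15). Without PANC-1 DMSO replicate 1, 6 rose in BxPC-3, 6 in MiaPaCa-2 and 2 in PANC-1. CDC37, the kinase co-chaperone that loads CDK4 onto HSP90, rose from 224 ± 12.7 to 569 ± 30.2 units in BxPC-3 (1.34, limma adjusted p = 1.39e-07; 0.15 on the ERCC scale) and from 228 ± 10.2 to 497 ± 24.9 in MiaPaCa-2 (1.12, 1.36e-06; -0.17). SKP1, of the SCF ubiquitin ligase that degrades p27, rose by 1.28 and 1.24 (0.094 and -0.042 on the ERCC scale). FBXO31, an F-box protein that targets cyclin D1, fell in BxPC-3 and MiaPaCa-2 (-0.64 and -1.0), and AMBRA1, another cyclin D receptor for degradation, fell in MiaPaCa-2 (-0.46).

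Of 8 mitogen inputs to CCND1, 3 rose and 3 fell in BxPC-3, 3 rose and 2 fell in MiaPaCa-2 and 2 fell in PANC-1 (medians -0.046, 0.11 and -0.080). By the ERCC controls 0 were called higher, and 5, 6 and 3 lower in BxPC-3, MiaPaCa-2 and PANC-1. With TMM factors 1 was lower in PANC-1. CTNNB1 rose in BxPC-3 and MiaPaCa-2 (1.12 and 0.93), as did STAT3 (1.00 and 0.67), and ETS1 rose in BxPC-3 (0.58). TCF7L2 fell in BxPC-3 (-0.35) and FOSL1 in MiaPaCa-2 (-0.93). JUN fell in all 3 lines (-0.97, -0.30 and -0.39; limma adjusted p = 9.54e-09, 0.00202 and 0.0355). MYC fell in BxPC-3 from 114 to 58.5 units (-0.95) and was 0.19 in MiaPaCa-2 (limma adjusted p = 0.0685). EGR1 rose in MiaPaCa-2 from 178 to 530 units (1.57) and fell in PANC-1 from 78.9 to 30.9 (-1.25, limma adjusted p = 0.0096).

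**Figure D5:**
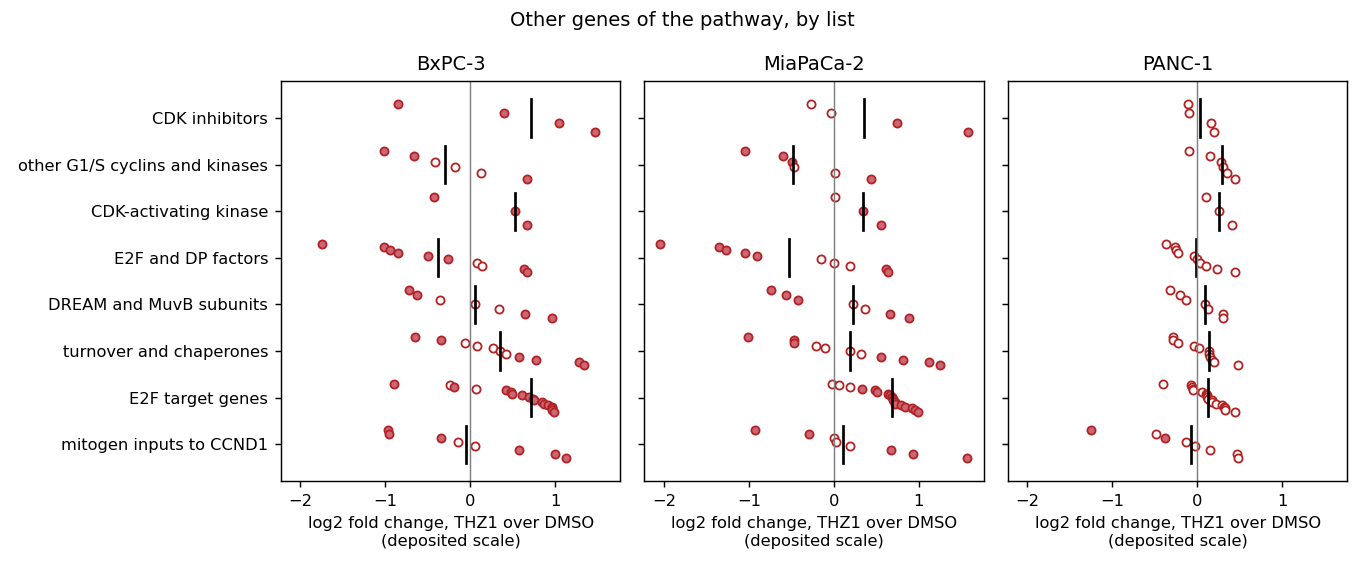
Log2 difference between THZ1 and DMSO for each gene of the 8 pathway lists in each line, on the deposited scale; filled points passed limma's test and black bars are list medians. The E2F target genes lie high in BxPC-3 and MiaPaCa-2 (medians 0.71 and 0.69), while the E2F and DP factors lie low (-0.38 and -0.52).

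The gene whose log2 level was most like that of each member was found over the 18 libraries among 7175 genes with a mean of at least 20 units. The points share 3 lines of 6 libraries, so that differences between lines carry much of each correlation. For CDK6 it was ALCAM, a cell adhesion molecule (Pearson r = 0.998, Spearman rho = 0.950), and for RBL2 it was GPAM (0.990 and 0.992). CDK4 was most like the mitochondrial transcript MT_CYB (0.987 and 0.975), whose class moved with the treatment as given above. RB1 was most like ABCE1 (0.989 and 0.986), CCND1 like VPS37C (0.981 and 0.915) and CDK2 like FAM96A (0.975 and 0.938). CCND3 was most like OTUB1 (0.965 and 0.948), RBL1 like NAA30 (0.949 and 0.955) and CDKN1B like DENND6A (0.938 and 0.893). Without PANC-1 DMSO replicate 1 the same pairs had r from 0.927 to 0.998.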

How the data were processed

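Polyadenylated RNA of 18 libraries was sequenced after stranded library preparation, per the labels' protocols, with ERCC controls added to the extracted RNA. The submitters' processing notes name STAR and hg19. Not given in the sources used here are the counting program, whether it used strand and how each divisor was set. As deposited by the authors, the library columns hold a signal: whole reads divided by 1 whole number per library (100% of values within 0.001 of a whole read). The authors also deposited columns of log2 ratios between treatment and control, means over the lines, which were not used.

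Values were multiplied by 17.7 so that the mean library sums to 1000000. Genes at 1 or more in at least 3 libraries (15354) were tested with limma 3.58.1 (R 4.3.3, with a mean-variance trend), applied to log2(value + 1), with 6 group means, 12 residual df and Benjamini-Hochberg adjustment at 0.05. Fold changes are on that scale. Nothing beyond the spread among these libraries enters the p-values. Alternatives were other scalings, pseudocounts and filters, library weights, a replicate block, the 2 compared groups fitted by themselves, leaving out single libraries, and, on the recovered reads, edgeR 4.0.16, DESeq2 1.42.0 and voom. Within-library ratios were differences of log2(value + 1) and were tested by exact two-sided permutation. The tests were run on simulated data first.

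All 9 genes were named whatever their values. Of lists of up to 8 measured genes every gene qualified for naming, of longer lists the 2 highest and 2 lowest by mean change, and for each member the gene with the highest Pearson correlation. The members and lists were chosen with earlier results of these data known. Exon lengths and positions come from GENCODE v29 (GRCh38), promoters from RefSeq (GRCh38.p14), and neither is the files' build. The table gives 22 names as dates, which were kept unnamed.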

Additional observations from a re-analysis of the deposited data

Results flagged for a closer look

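The responses of 4 genes differed between lines by limma's interaction term. CDKN1B responded 0.94 higher in PANC-1 than in BxPC-3 (SE 0.28, limma adjusted p = 0.0129), with all 3 BxPC-3 THZ1 libraries below the DMSO libraries and overlapping groups in PANC-1. Its sign held on all 6 scales.

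CCND3 (-0.38), CDK4 (-0.52) and CDK2 (-0.29) responded lower in PANC-1 than in MiaPaCa-2 on the deposited scale (limma adjusted p = 0.0373, 0.029 and 0.0399). On the ERCC scale these were 0.61, 0.48 and 0.69, and relative to the median gene -0.14, -0.28 and -0.051. Without PANC-1 DMSO replicate 1 they were -0.26, -0.74 and -0.36.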

How the results depend on the processing

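The fits held 3 libraries per group, and reads were fewest for CCND2 in all lines, CDK6 in MiaPaCa-2, and CDKN1B, RB1 and RBL2 in PANC-1 DMSO replicate 1 (77, 75 and 69). Counts of the 9 genes called changed as follows; the cause was not tested except that the fits on the compared groups alone and without PANC-1 DMSO replicate 1 leave that library's spread out of the other lines' error.

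For the BxPC-3 response, 5 (4 higher, 1 lower) were called, 3 (0 higher, 3 lower) with TMM factors, edgeR and DESeq2, 2 (0 higher, 2 lower) with DESeq2 factors and 9 (7 higher, 2 lower) with library weights and the compared groups alone, and 4 to 9 without 1 library. All-gene counts moved as well: of 15354 genes, 6147 were higher and 2908 lower in the main fit. With TMM factors they were 3448 and 4561, with edgeR 4111 and 4391, and with DESeq2 factors 4067 and 4081. Library weights gave 7967 and 3907, and the compared groups alone 7721 and 3753. For the MiaPaCa-2 response, 3 (3 higher, 0 lower) were called, 8 (0 higher, 8 lower) with the ERCC scale, 7 (5 higher, 2 lower) with library weights and the compared groups alone and 5 (3 higher, 2 lower) with DESeq2, and 3 to 7 without 1 library. Here all genes gave 5598 higher and 3042 lower, and 226 and 11223 with the ERCC scale. They gave 7407 and 4075 with library weights, 7199 and 3928 with the compared groups alone and 4375 and 3999 with DESeq2. For the PANC-1 response, 0 were called, 2 (1 higher, 1 lower) with library weights, and 0 to 2 without 1 library. Here all genes gave 42 higher and 35 lower, and 1856 and 860 with library weights. For MiaPaCa-2 minus BxPC-3 responses, 0 were called, 2 (1 higher, 1 lower) with pseudocount and filter in the deposited unit, 5 (3 higher, 2 lower) with library weights, 4 (2 higher, 2 lower) with the compared groups alone and 1 (0 higher, 1 lower) with DESeq2, and 0 to 4 without 1 library. Here all genes gave 942 higher and 1176 lower, and 865 and 1330 of 9057 genes in the deposited unit. They gave 2879 and 4118 with library weights, 2485 and 3644 with the compared groups alone and 1327 and 1026 with DESeq2. For PANC-1 minus BxPC-3 responses, 1 (1 higher, 0 lower) was called, 4 (4 higher, 0 lower) with the ERCC scale, 5 (5 higher, 0 lower) with equal sums, 2 (1 higher, 1 lower) with equal medians, a pseudocount of 5 and pseudocount and filter in the deposited unit, 2 (2 higher, 0 lower) with TMM factors and 6 (1 higher, 5 lower) with library weights, and 1 to 5 without 1 library. Here all genes gave 1828 higher and 4733 lower, and 4432 and 244 with the ERCC scale. They gave 4726 and 794 with equal sums, 1755 and 5043 with equal medians and 1766 and 4726 with a pseudocount of 5. TMM factors gave 3280 and 1871 and library weights 2879 and 6684. For PANC-1 minus MiaPaCa-2 responses, 3 (0 higher, 3 lower) were called, 5 (5 higher, 0 lower) with the ERCC scale, 1 (1 higher, 0 lower) with TMM factors, DESeq2 factors, voom, edgeR and DESeq2, 1 (0 higher, 1 lower) with no trend and 0 with the compared groups alone, and 0 to 4 without 1 library. Here all genes gave 1775 higher and 4203 lower, and 6450 and 246 with the ERCC scale. They gave 2746 and 2218 with TMM factors, 2617 and 2377 with edgeR and 2680 and 2787 with DESeq2. No trend gave 1778 and 4182, and the compared groups alone 1382 and 3036. For MiaPaCa-2 minus BxPC-3 DMSO levels, 5 (0 higher, 5 lower) were called, 2 (1 higher, 1 lower) with the ERCC scale, and 5 to 7 without 1 library. Here all genes gave 5757 higher and 3857 lower, and 7646 and 2361 with the ERCC scale. For PANC-1 minus BxPC-3 DMSO levels, 7 (1 higher, 6 lower) were called, 4 (0 higher, 4 lower) with the compared groups alone, and 5 to 8 without 1 library. Here all genes gave 5171 higher and 3900 lower, and 3563 and 2698 with the compared groups alone. For PANC-1 minus MiaPaCa-2 DMSO levels, 8 (4 higher, 4 lower) were called, 4 (2 higher, 2 lower) with the compared groups alone, and 7 to 9 without 1 library. Here all genes gave 4295 higher and 5036 lower, and 3035 and 3555 with the compared groups alone.

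These results had the opposite sign. On the ERCC scale they were CCND1, CCND3, CDK4, CDK6, CDK2, RB1 and RBL2 at -1.06, -0.91, -0.51, -0.35, -0.84, -0.61 and -0.80 in the BxPC-3 response, CCND3, CDK4, CDK6, CDK2, RB1 and RBL2 at -0.88, -0.39, -0.95, -0.76, -0.93 and -1.02 in the MiaPaCa-2 response, CCND3, CDK6, CDK2, CDKN1B and RBL1 at -0.27, -0.17, -0.068, -0.17 and -0.22 in the PANC-1 response, CCND3, CDK4 and CDK2 at 0.61, 0.48 and 0.69 in PANC-1 minus MiaPaCa-2 responses, CCND3 and CDKN1B at 0.0052 and 0.25 in MiaPaCa-2 minus BxPC-3 DMSO levels, CCND3 at 0.034 in PANC-1 minus BxPC-3 DMSO levels, CDK4 and CDK2 at -0.24 and -0.11 in PANC-1 minus MiaPaCa-2 DMSO levels. With equal sums they were CCND1, CCND3, CDK4, CDK2, RB1 and RBL2 at -0.61, -0.46, -0.057, -0.39, -0.16 and -0.35 in the BxPC-3 response, CCND3, CDK6, CDK2, RB1 and RBL2 at -0.25, -0.39, -0.13, -0.29 and -0.38 in the MiaPaCa-2 response, CCND3, CDK4 and CDK2 at 0.27, 0.13 and 0.35 in PANC-1 minus MiaPaCa-2 responses, RBL1 at -0.011 in MiaPaCa-2 minus BxPC-3 DMSO levels. With TMM factors they were CCND1, CCND3, CDK2 and RBL2 at -0.26, -0.12, -0.057 and -0.015 in the BxPC-3 response, CDK6 at -0.040 in the MiaPaCa-2 response, CDK2 at 0.036 in PANC-1 minus MiaPaCa-2 responses, RBL1 at -0.15 in MiaPaCa-2 minus BxPC-3 DMSO levels. With DESeq2 factors they were CCND1 and CCND3 at -0.17 and -0.027 in the BxPC-3 response, CDK6 at -0.0028 in the MiaPaCa-2 response, CDK2 at 0.036 in PANC-1 minus MiaPaCa-2 responses, RBL1 at -0.16 in MiaPaCa-2 minus BxPC-3 DMSO levels. With voom they were CCND1 and CCND3 at -0.20 and -0.057 in the BxPC-3 response, CDK6 at -0.0036 in the MiaPaCa-2 response, RBL1 at -0.18 in MiaPaCa-2 minus BxPC-3 DMSO levels. With edgeR they were CCND1 and CCND3 at -0.20 and -0.058 in the BxPC-3 response, CDK6 at -0.0039 in the MiaPaCa-2 response, RBL1 at -0.17 in MiaPaCa-2 minus BxPC-3 DMSO levels. With DESeq2 they were CCND1 and CCND3 at -0.15 and -0.013 in the BxPC-3 response, RBL1 at -0.16 in MiaPaCa-2 minus BxPC-3 DMSO levels. With library weights they were CCND1, CDK6, CDKN1B and RBL1 at 0.024, -0.082, -0.33 and -0.21 in the PANC-1 response.

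Leaving out each library in turn gave both signs in CCND1 in the PANC-1 response -0.27 to 0.041, CCND3 in the PANC-1 response -0.068 to 0.13, CDK6 in the PANC-1 response -0.17 to 0.35, CDKN1B in the PANC-1 response -0.25 to 0.30, RBL1 in the PANC-1 response -0.21 to 0.20, RBL2 in the PANC-1 response -0.063 to 0.51, RBL1 in MiaPaCa-2 minus BxPC-3 DMSO levels -0.017 to 0.12, CCND3 in PANC-1 minus BxPC-3 DMSO levels -0.17 to 0.035, RB1 in PANC-1 minus BxPC-3 DMSO levels -0.87 to 0.029, CDK4 in PANC-1 minus MiaPaCa-2 DMSO levels -0.061 to 0.27 and CDKN1B/CCND1 in PANC-1 -0.29 to 0.55; the libraries were PANC-1 DMSO replicates 1, 2 and 3, PANC-1 THZ1 replicates 1, 2 and 3 and BxPC-3 DMSO replicate 3.

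With the replicate number as a block, 5 were called in BxPC-3, 4 in MiaPaCa-2 and 0 in PANC-1, RBL1 in MiaPaCa-2 being added (limma adjusted p = 0.0394). The 9 same-numbered pairs within a line had correlations from -0.03 to 0.45, 3 of them over 0.1. Of 18 libraries, 10 correlated best with their own number. These values do not settle whether the numbers pair the samples, so the replicate block stays a check. Of the single-gene values under other settings, 813 kept direction and side of the threshold, 53 newly passed, 70 no longer passed and 68 had the opposite sign.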
